A study of Mus musculus with 6 samples.

Results

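The 41 long intergenic noncoding RNAs (lincRNAs) described here were chosen by their level in sorted mouse brain endothelial cells. The rule took genes that the table types as lincRNA, on chromosomes 1 to 19. It required an FPKM (fragments per kilobase of gene length, scaled by a factor per library) of at least 2 in all 6 libraries. It found 41 of the 4915 autosomal lincRNA genes in the table (0.834%) and of 54532 genes in all, whereas 7276 of 20825 autosomal protein-coding genes (34.94%) met the same level. Since level chose the members, their levels are a description and carry no test. The libraries came from Df(h22q11)/+ mice, a model of human 22q11.2 deletion syndrome whose heterozygous deletion both groups share. Untreated mice ate irradiated base chow and treated mice ate chow with 0.5% bezafibrate, a fibrate drug that activates PPAR nuclear receptors, for 4 weeks. Mice were 12 to 16 weeks old. Each group has 3 libraries, untreated F_1, F_2 and M_1 and bezafibrate F_1, M_1 and M_2 (F female, M male), and each library pools 3 brains of the same sex. Values of single libraries are always given in that order. Cells were sorted as live, CD31+, CD45- and PDGFRb-. Wild-type mice were not analysed here.

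LincRNAs are transcribed from their own promoters between protein-coding genes, and most are spliced and polyadenylated without being translated. Some act where they are made, on nuclear bodies or neighbouring genes, some bind proteins or microRNAs in the cytoplasm, and others serve mainly as carriers of small RNAs in their introns. In endothelium, Malat1 is the best studied of them, with reported roles in the balance between proliferation and sprouting.

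The 6 libraries held 16858130 to 20228619 reads, recovered from the FPKM values. Endothelial markers were abundant, with a summed level over 10 genes of 7481 to 12520 FPKM, whereas 6 of 8 neuronal markers were under 1 FPKM in all libraries and Gad2, Rbfox3 and Syt1 were at 0 in at least 1. The 6 choroid plexus and ependymal markers summed to 358.8 to 401.5 FPKM in the untreated and 407.2 to 938 in the treated libraries, most of it Ttr with its highest value, 919, in bezafibrate M_2, and the 6 pericyte markers to 182.4 to 329.8 and 178.7 to 253.7. Xist was at 0 in all 3 male libraries and at 11.9 to 13.1 FPKM in the female ones, as their names say. The leading principal component (39.3% of the variance) set untreated M_1 and bezafibrate F_1 apart, at scores of 30.3 and 24.4 against -22.6 to 1.6 in the other 4. In bulk RNA, fewer cells of a type and less RNA per cell cannot be told apart.

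The lincRNAs were low next to coding genes that met the same rule. Their mean levels had a median of 6.78 FPKM (quartiles 4.76 and 9.43), against 9.75 (5.39 and 21.1) for those coding genes, and they were shorter, with a median length of 1780 against 4334.5 bases. A median lincRNA rested on 203 reads a library, and a median coding gene on 876. The SD of log2 values within a group had a median of 0.36 for the lincRNAs and 0.21 for the coding genes. All 41 together made up 0.145% to 0.181% of the FPKM of a library, a sum of 435 to 478 FPKM. The first 3 by mean level, Malat1, Bvht and AW112010, held 34.4% to 44.0% of that sum. Going down the order of mean levels, the ranges over 6 libraries overlapped for 39 of 40 neighbouring genes, and the gap lay between AW112010 and 1700020I14Rik. The highest library was under 2 times the lowest in 16 of 41 lincRNAs, and the ratio ran from 1.13 in 2900097C17Rik to 5.11 in Gm45353. Gm45353, of 252 bases, had 12.8, 2.67 and 7.69 FPKM in the untreated and 13.7, 10.8 and 3.80 in the treated libraries, on 12 to 65 reads, with a low and a high library in each group.

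**Figure D1:**
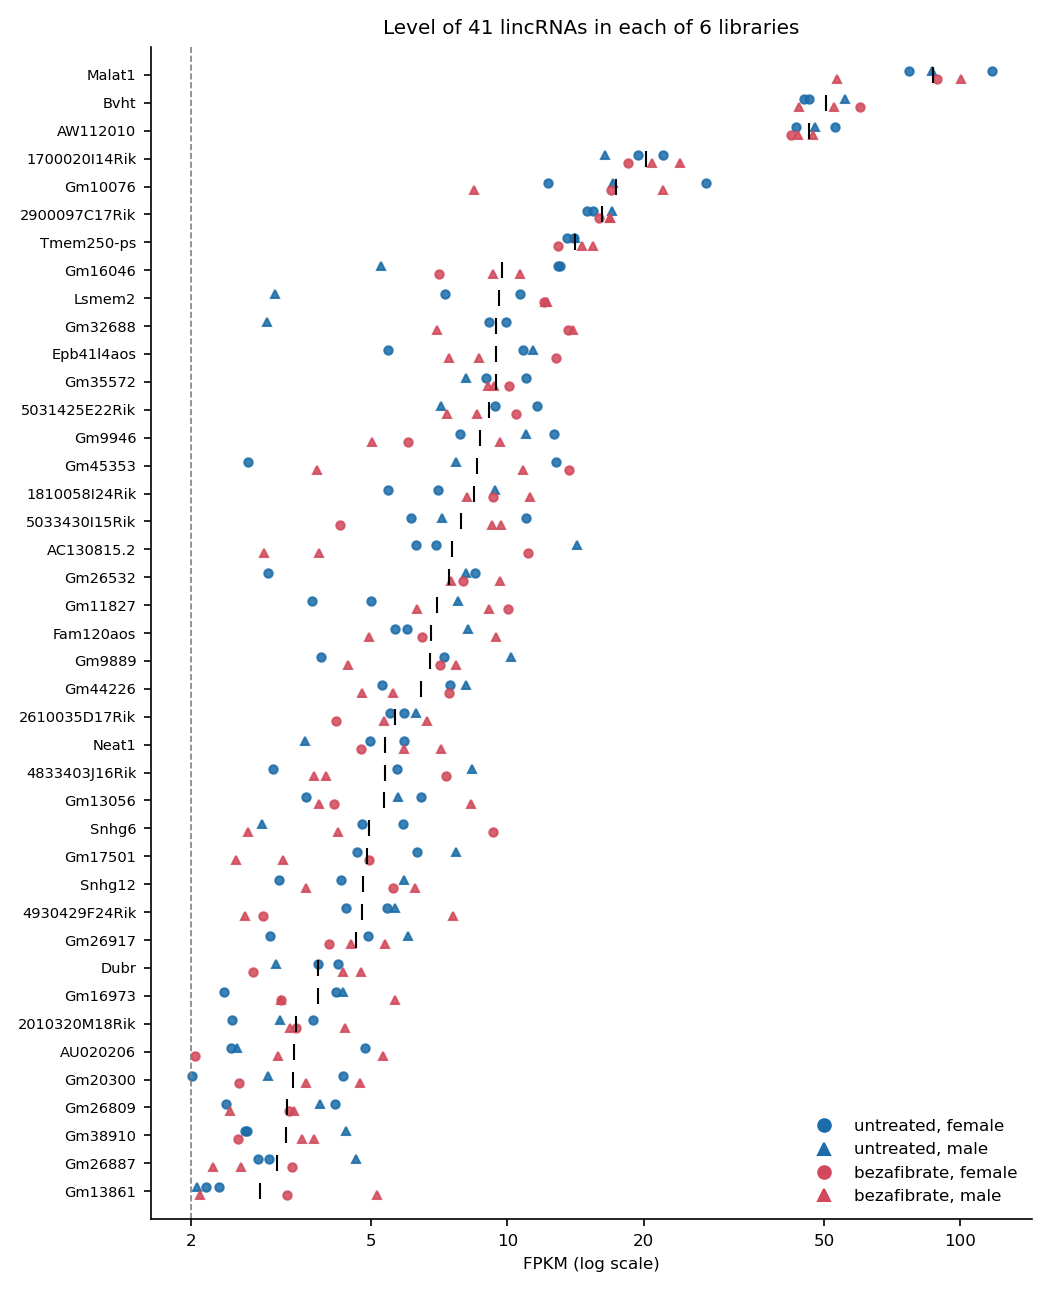
FPKM (log axis) of the 41 lincRNAs in each of the 6 libraries, ordered by mean level (black tick), with circles for female and triangles for male libraries and the dashed line at the FPKM of 2 that the rule required. Malat1, Bvht and AW112010 lie to the right of all others, and untreated and bezafibrate points are mixed in nearly every line.

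Malat1 (ENSMUSG00000092341, chr19:5795690-5802672, minus strand of GRCm38), an unspliced RNA of nuclear speckles, was the highest. It stood at 77.1, 117 and 86.5 FPKM in the untreated and at 88.6, 100.4 and 53.3 in the treated libraries. Untreated F_2 was the highest library and bezafibrate M_2 the lowest, and the groups overlapped (log2 difference -0.24, SE 0.27, limma adjusted p = 0.999). The sign turned without bezafibrate M_2 (0.03) and with the replicate name from the titles as a block (0.21), but not with the name from the table's columns (-0.24). Neat1 (ENSMUSG00000092274, chr19:5824708-5845478, minus strand), the RNA around which paraspeckles assemble, lies 22036 bases away on the same strand. Its levels were 4.98, 5.90 and 3.58 FPKM in the untreated and 4.76, 7.12 and 5.90 in the treated libraries. Neat1 also overlapped between the groups, with a log2 difference of 0.26 (SE 0.20, limma adjusted p = 0.999) that was 0.09 without untreated M_1, 0.135 without bezafibrate M_1 and 0.39 without untreated F_2. Miat, the other gene of the nuclear architecture list, had 0.115 to 0.335 FPKM and was not tested.

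1700020I14Rik (ENSMUSG00000085438, chr2:119594297-119607502, plus strand; Oip5os1 in RefSeq, also called Cyrano) ranked after Malat1, Bvht and AW112010. Cyrano is known for a site that pairs almost fully with the microRNA miR-7 and triggers its destruction. In the longest annotated transcript, of 8300 bases, the complement of the miR-7a-5p seed occurred at positions 762 and 2952. At position 2952, 22 of the 23 bases of the microRNA could pair, with 2 site bases left over in gaps. Among all seed matches in the 41 lincRNAs, the next best, in 2900097C17Rik, paired 14. The microRNA (RefSeq, GRCm38.p6) and both of these sites are shown because they show the difference in pairing, with the seed (bases 2 to 8) or its complement in capitals.
miR-7a-5p: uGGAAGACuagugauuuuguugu
1700020I14Rik, position 2952: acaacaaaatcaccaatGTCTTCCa
2900097C17Rik, position 3090: aaatttgcagcacccaGTCTTCCt
A seed match alone was common, in 6 of 41 members and 620 of 4911 autosomal lincRNAs with a transcript. 1700020I14Rik had 19.4, 22.0 and 16.5 FPKM in the untreated and 18.5, 24.03 and 20.9 in the treated libraries. The groups overlapped (log2 difference 0.13, SE 0.16, limma adjusted p = 0.999). With each library left out, the difference ranged from 0.02 without untreated M_1 to 0.22 without untreated F_2. It was 0.25 after rescaling to TPM.

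2900097C17Rik (ENSMUSG00000102869, chr2:156388065-156392979, minus strand; Norad in RefSeq) is known to hold Pumilio proteins, which bind RNA at a short element, and to guard chromosome stability. Its single-exon transcript of 4915 bases held 11 elements of the form TGTANATA, read on the transcript strand. No other of 4911 autosomal lincRNAs held as many, and 560 (11.4%) held at least 1. The next member was Neat1, with 4 in 20771 bases. Per kilobase Norad held 2.24, less than Gm45353, which held 3.97 through 1 element in 252 bases. All 11 of Norad are printed because their number sets it apart, each with 9 bases on either side and the element in capitals. The middle base was T in 6, C in 3 and A in 2, and elements 8 and 9 start at bases 2442 and 2451 of the transcript.
Element 1: gaagtcctgTGTATATAatatgaaaa
Element 2: taaacatgcTGTAAATAcctttttgt
Element 3: gcttttcttTGTACATAgtgtatgta
Element 4: tgactgctgTGTATATAgtggacaac
Element 5: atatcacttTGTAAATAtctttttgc
Element 6: tgtgtatacTGTATATAatggacaaa
Element 7: aatattttgTGTATATAgttttttta
Element 8: ttgctatgcTGTATATAttgtacata
Element 9: tgtatatatTGTACATActggacaaa
Element 10: gtactactaTGTATATAggggacaaa
Element 11: gtgagaaagTGTACATAacggattgg
Norad was the steadiest of the 41, at 15.5, 15.0 and 17.01 FPKM in the untreated and 15.9, 16.9 and 16.9 in the treated libraries. The log2 difference was 0.06 (SE 0.12, limma adjusted p = 0.999). With each library left out it lay between 0.03 without untreated F_2 and 0.11 without untreated M_1. It was 0.18 after rescaling to TPM and 0.015 with the replicate name from the table's columns as a block. Of its 75-base stretches, 34.5% also occur in Gm7292, which stood at 0.037 to 0.242 FPKM.

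**Figure D2:**
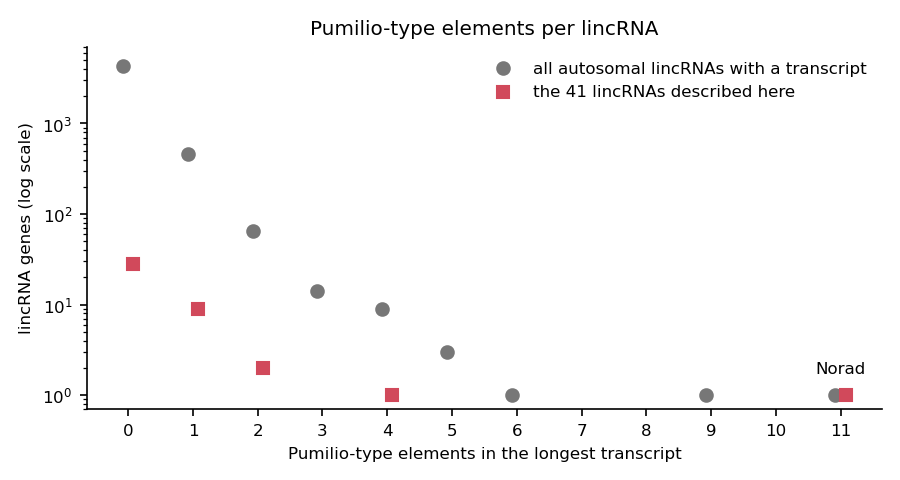
Number of lincRNA genes (log axis) by how many Pumilio-type elements the longest transcript holds, for all 4911 autosomal lincRNAs with a transcript (grey) and the 41 members (red). Norad stands alone at 11 elements, and 28 of the 41 members hold none.

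Bvht (ENSMUSG00000098098), or Braveheart, is known for its part in the commitment of mouse cells to the heart lineage. It ranked second, at 45.1, 46.3 and 55.6 FPKM in the untreated and 60.0, 44.1 and 52.5 in the treated libraries. The highest values were those of untreated M_1 and bezafibrate F_1, and the groups overlapped (log2 difference 0.08, SE 0.16, limma adjusted p = 0.999), a difference that came to -0.02 without bezafibrate F_1. AW112010 (ENSMUSG00000075010, chr19:11047617-11050566), an RNA known from activated immune cells, had 52.9, 43.4 and 47.8 FPKM in the untreated and 42.2, 47.3 and 43.9 in the treated libraries. Those groups overlapped too, with a log2 difference of -0.11 (SE 0.13, limma adjusted p = 0.999) that came to 0.0096 after rescaling to TPM and 0.0002 with limma-voom on recovered reads.

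The type given in the table was not the type in RefSeq for several members. Of 31 lincRNAs matched to a RefSeq gene of GRCm38.p6, 27 were lncRNAs there, 3 were protein-coding and 1 a pseudogene. The 3 were Tmem250-ps, Lsmem2 and 1810058I24Rik, and the pseudogene was Gm10076. Gm10076 shares 51.3% of its 75-base stretches with Rpl41, a ribosomal protein mRNA at 199.7 to 299.9 FPKM, so in its 8.45 to 27.5 FPKM the reads of Rpl41 cannot be told apart. Tmem250-ps was even across libraries, at 13.0 to 15.4 FPKM. The lincRNA row of Lsmem2 (ENSMUSG00000103409, chr9:107593841-107597075, minus strand) covers 369 bases inside a RefSeq gene of the same symbol at chr9:107592626-107597990.

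3 members hold small nucleolar RNAs, guides for the modification of other RNAs that are usually cut from introns. Snhg12 (chr4:132308623-132311024, plus strand) holds Snora16a, Snora44, Snora61 and Snord99, and Snhg6 (chr1:9941959-9944118, minus strand) holds Snord87, all of them at 0 in every library. Those in Snhg12 lie wholly within its annotated exon, so their reads and those of Snhg12 cannot be told apart. Snhg12 had 3.13 to 6.25 FPKM, with a mean of 4.45 ± 1.40 in untreated and 5.14 ± 1.38 in the treated libraries (SD, n = 3 each). Snhg6 had 4.51 ± 1.52 and 5.40 ± 3.47, with bezafibrate F_1 at 9.31. Epb41l4aos had 9.22 ± 3.29 and 9.63 ± 2.81. The snoRNA in its intron, Gm23639, had 0 reads in all untreated libraries and 5, 4 and 9 in the treated ones, which was short of the threshold over all genes (limma unadjusted p = 0.000264, adjusted p = 0.512).

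Gm26532 (ENSMUSG00000097296, chr8:84208920-84209609, plus strand) begins inside the last 2 bases of the Mir24-2 hairpin. It thus directly follows the cluster of miR-23a, miR-27a and miR-24-2, whose microRNAs are known in endothelium for effects on vessel growth. The mature 3′ microRNAs of the cluster (RefSeq, GRCm38.p6) are printed to show what lies upstream, with the seed in capitals. No seed is shared among them.
miR-23a-3p: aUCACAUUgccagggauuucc
miR-27a-3p: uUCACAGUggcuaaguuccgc
miR-24-3p: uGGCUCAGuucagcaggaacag
The hairpins of Mir23a and Mir27a end 328 and 162 bases before the first base of Gm26532. Gm26532 had 2.96, 8.46 and 8.12 FPKM in the untreated and 7.97, 7.497 and 9.64 in the treated libraries. Untreated F_1 was the low library, and the other 5 lay between 7.497 and 9.64 FPKM. Another member, Gm26887 (chr8:84192774-84197667, minus strand), lies 11253 bases away and had 2.24 to 4.63 FPKM.

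Some members share a head-to-head start with a coding gene. 7 of 41 (17.07%) start within 1000 bases of a coding gene on the other strand and point away from it, against 4.9% of the other autosomal lincRNAs and 12.08% of those with a read, and these shares were not tested against each other. Gm9889 starts 78 bases from S1pr1, the receptor for sphingosine-1-phosphate that supports the endothelial barrier. Gm17501 starts 331 bases from Cyr61, a secreted matrix protein made in response to stretch and growth signals. The other 5 are 2010320M18Rik with Pik3r2 (102 bases), 4930429F24Rik with Tmem30a (134), 5031425E22Rik with Kmt2e (172), 5033430I15Rik with Atxn1 (245) and Fam120aos with Fam120a (270). Mean coding levels were from 0.447 times (Atxn1 over 5033430I15Rik) to 87.6 times (S1pr1) and 274 times (Cyr61) those of the lincRNA. S1pr1 averaged 592 FPKM and Gm9889 (ENSMUSG00000052769, chr3:115715150-115716728, plus strand) 6.76. Gm9889 had 7.24, 3.87 and 10.2 FPKM in the untreated and 7.11, 4.44 and 7.72 in the treated libraries, and S1pr1 had 559, 640 and 772 and 648, 436 and 496. For both genes untreated M_1 was the highest library, as it was for 22.4% of all genes tested.

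The start regions of the members were read from RefSeq promoters of GRCm38.p6, 250 bases before to 50 after the start, which matched 19 of 41. On either strand, TATAAA was in 3 (15.8%, against 13.62% of 32851 promoters) and GGGCGG in 9 (47.4% against 35.66%). AGGTCA, the hexamer that nuclear receptors such as PPAR bind in pairs, was in 3 (15.8% against 16.26%). A pair of such hexamers spaced by 1 base was in 0 (against 0.04%). With that exact pair in only 13 of 32851 promoters, its absence from 19 says nothing about these members. An observed-to-expected CpG ratio of at least 0.6 was found in 11 (57.9% against 35.81%). These are letter matches, not sites of binding.

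Several lincRNAs share exon bases with a gene on the other strand, and the cDNA kit does not mark strand, so such reads cannot be told apart. Gm44226 and 4833403J16Rik (chr6:48754230-48755986 and chr6:48755338-48756368), both members in the cluster of Gimap genes, overlap over 649 exon bases, or 54.3% and 62.9% of their lengths. Their ranges were 4.76 to 8.11 and 3.04 to 8.36 FPKM, with the highest value of each in untreated M_1. That library was the highest for 22% of members and 22.4% of all genes tested. Gm26809 shares 28.7% with Gm20186, Gm16973 15.9% with Mphosph8, Tmem250-ps 14.8% with 1810012K08Rik and Snhg6 11.1% with Mcmdc2. Mphosph8 stood at 5.75 FPKM and Gm16973 at 3.81.

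Bezafibrate against untreated was tested with limma on log2(FPKM + 1) over 11277 genes, and p was adjusted over all of them (Benjamini-Hochberg). None of the 41 lincRNAs passed an adjusted p of 0.05 (smallest 0.999), where the background was 0.00887% of genes, a single call, the microRNA row Gm27616. At an unadjusted limma p under 0.05 there were 2 of 41, Lsmem2 higher and Gm17501 lower, against 4.19% of all genes. In 1 of 41, Lsmem2, the groups did not overlap, against 8.42% of all genes, and 3 libraries against 3 cannot go below an exact two-sided p of 0.1. The log2 difference was positive in 25 and negative in 16, with a median of 0.04 (quartiles -0.12 and 0.18) beside -0.01 over all genes tested (quartiles -0.14 and 0.13). With the replicate name from the table's columns as a block the median was -0.026. Rescaling to TPM (each library divided by its own sum) raised the median of all genes to 0.10 and that of the lincRNAs to 0.15. The 95% confidence interval lay within a difference of 1 on the log2 scale, either way, for 29 of 41, and reached a median of 0.58 to either side. A lincRNA switched off in a group could not be a member. Of the 95 other autosomal lincRNAs tested, limma called 0, with 8 at an unadjusted p under 0.05 and a smallest adjusted p of 0.962.

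**Figure D3:**
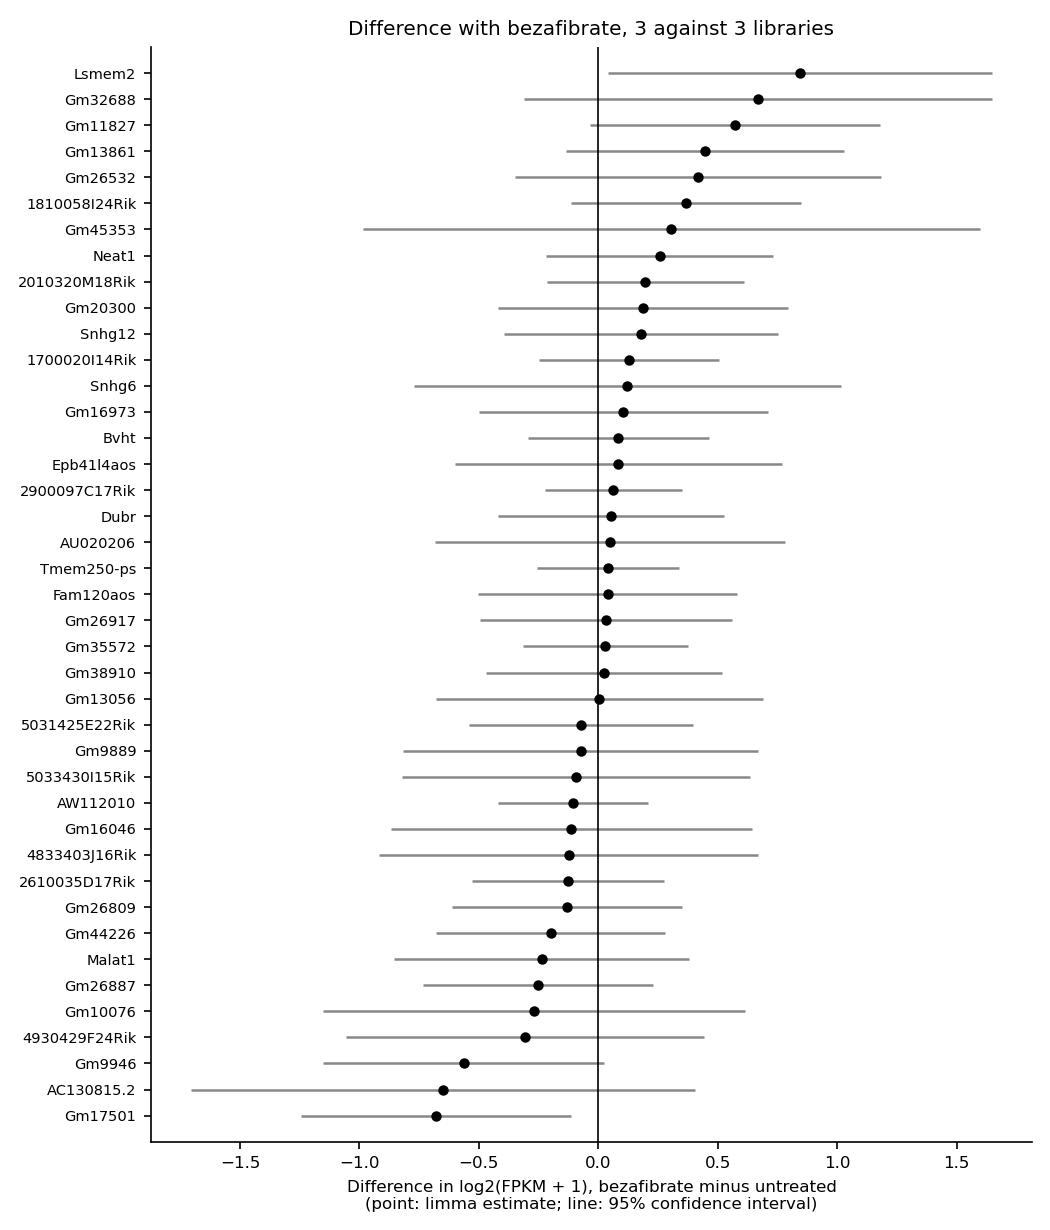
Difference in log2(FPKM + 1) between 3 bezafibrate and 3 untreated libraries for the 41 lincRNAs, as the limma estimate (point) with its 95% confidence interval (line). The estimates run from -0.68 in Gm17501 to 0.84 in Lsmem2, and 39 intervals cross 0 before any adjustment for the number of genes.

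Lsmem2 had the largest positive difference. Its 3 bezafibrate libraries were nearly equal, at 12.0, 12.2 and 12.1 FPKM, and the untreated ones spread over 7.28, 10.6 and 3.06. Every bezafibrate library was above every untreated one, most of all above untreated M_1, where 21 reads were found (log2 difference 0.84, SE 0.35, limma unadjusted p = 0.0419, adjusted p = 0.999). Gm32688 (chr10:93317403-93322725, plus strand) was also lowest in untreated M_1, at 2.95 FPKM, and had 9.95 and 9.11 in untreated F_1 and F_2. With bezafibrate it had 13.6, 13.99 and 7.003, so that the groups overlapped (log2 difference 0.67, SE 0.42, limma adjusted p = 0.999). Without untreated M_1 the log2 difference was 0.42 for Lsmem2 and 0.20 for Gm32688. With sex as a covariate it was 1.05 and 0.97, and with the replicate name from the titles as a block 1.18 and 1.17. Gm11827 had 5.50 ± 2.09 FPKM in the untreated and 8.49 ± 1.93 in the treated libraries (SD, n = 3 each). For 1810058I24Rik, whose RefSeq entry is a small protein-coding gene, the values were 7.29 ± 1.99 and 9.56 ± 1.56. Gm13861, the lowest member by mean, had 2.18 ± 0.123 and 3.501 ± 1.55, with 19 to 48 reads a library.

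Gm17501 (ENSMUSG00000097183, chr3:145650312-145677580, plus strand) had the largest negative difference. It had 6.30, 4.66 and 7.71 FPKM in the untreated and 4.96, 2.52 and 3.197 in the treated libraries. Bezafibrate F_1 lay above untreated F_2, so the groups overlapped by these libraries (log2 difference -0.68, SE 0.24, limma unadjusted p = 0.0245, adjusted p = 0.999). Cyr61, its head-to-head partner, had 1680, 1713 and 1380 FPKM in the untreated and 1213, 1071 and 977 in the treated libraries. All of its bezafibrate values lay below all untreated ones, and it did not pass either (log2 difference -0.55, SE 0.17, limma unadjusted p = 0.0128, adjusted p = 0.999). RefSeq puts the starts of the pair 92 bases apart. The 91 bases between them and the first 50 bases of Gm17501 in capitals (GRCm38.p6, chr3:145649986-145650126, plus strand) are printed as the start region that this pair shares.
Gm17501 start: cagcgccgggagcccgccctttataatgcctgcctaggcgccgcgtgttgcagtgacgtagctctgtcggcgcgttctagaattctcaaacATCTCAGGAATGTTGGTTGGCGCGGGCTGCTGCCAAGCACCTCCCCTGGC
In it, TTTATA begins at -72 and CCGCCC at -78 from the start of Gm17501, which read as TATAAA and GGGCGG on the strand of Cyr61.

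Among the other members with a negative difference, Gm9946 had 12.7, 7.84 and 10.96 FPKM in the untreated and 6.03, 9.62 and 5.01 in the treated libraries. Untreated F_2 lay below bezafibrate M_1, so the groups overlapped (log2 difference -0.56, SE 0.25, limma adjusted p = 0.999). AC130815.2, Gm26887 and Gm44226 had log2 differences of -0.65, -0.25 and -0.20. With each library left out, AC130815.2 ranged from -1.14 (without bezafibrate F_1) to -0.32 (without untreated M_1), Gm26887 came to -0.08 without untreated M_1 and -0.16 without bezafibrate M_2, and Gm44226 ranged from -0.36 (without untreated F_1) to -0.08 (without bezafibrate M_2). The summed choroid plexus and ependymal markers given above, most of it Ttr, were highest in bezafibrate M_2, though Foxj1 and Ccdc153 were not. That library was the lowest of AC130815.2, Gm9946, Gm26887 and Gm44226. It was the lowest in 12.2% of members, against 19% of all genes. It was the highest in 22% of members, against 19.2%, among them Gm13861 and 1810058I24Rik. The part of choroid plexus RNA in these differences was not tested.

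**Figure D4:**
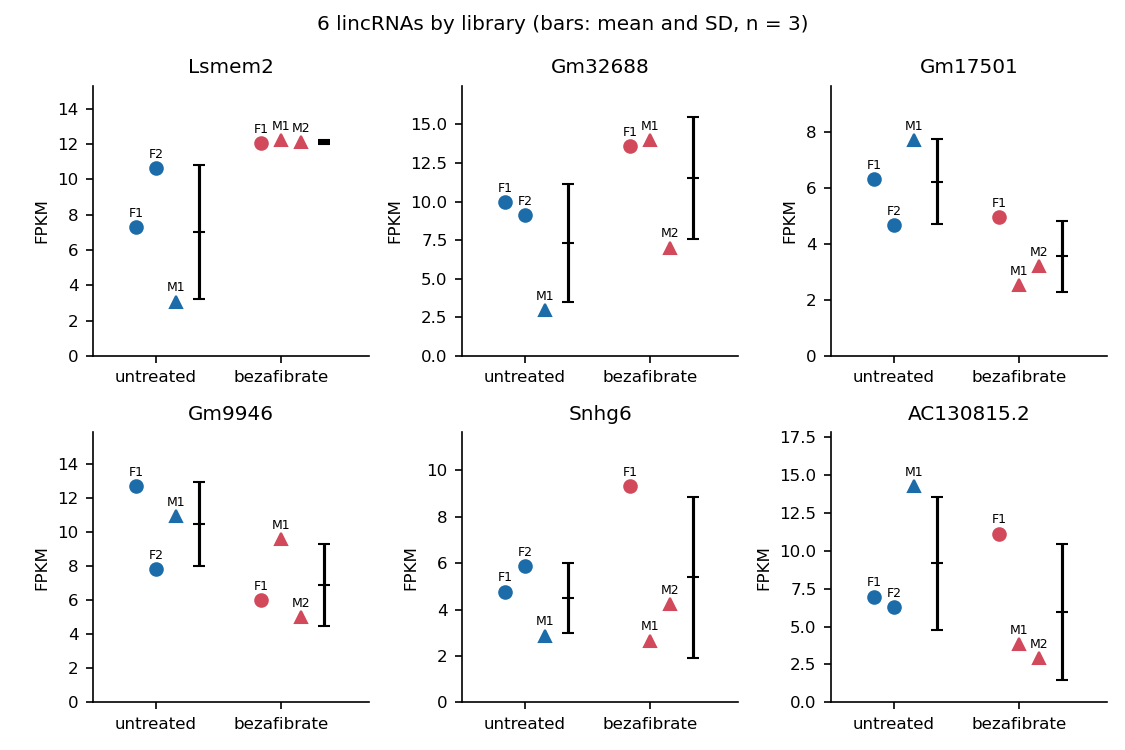
FPKM of 6 lincRNAs in each library (circles female, triangles male, labelled by library name) with the group mean and SD (n = 3). Lsmem2 is the panel in which the groups do not overlap, and AC130815.2 is high in untreated M_1 and bezafibrate F_1.

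Like Gm17501 and Cyr61, the other 6 head-to-head pairs gave no difference past the threshold on either side. The log2 difference was -0.33 (SE 0.20) for S1pr1 and -0.07 (SE 0.32) for Gm9889 (limma adjusted p = 0.999 for each). Kmt2e, a chromatin protein, had 19.5 ± 1.45 FPKM in the untreated and 16.5 ± 4.09 in the treated libraries (SD, n = 3 each), and 5031425E22Rik 9.39 ± 2.26 and 8.80 ± 1.55. Fam120a, an RNA-binding scaffold protein, had 37.7 ± 1.60 and 35.5 ± 3.37, and Fam120aos 6.62 ± 1.38 and 6.95 ± 2.27. Tmem30a, a subunit of lipid flippases, had 45.1 ± 5.34 and 42.8 ± 1.51, and 4930429F24Rik 5.15 ± 0.665 and 4.37 ± 2.80. Pik3r2, a regulatory subunit of PI3-kinase, had 4.00 ± 1.12 and 4.76 ± 0.555, and 2010320M18Rik 3.11 ± 0.632 and 3.70 ± 0.589. Atxn1 was the partner below its lincRNA, at 3.91 ± 0.929 and 3.17 ± 0.257 against 8.09 ± 2.55 and 7.72 ± 3.01 for 5033430I15Rik.

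**Figure D5:**
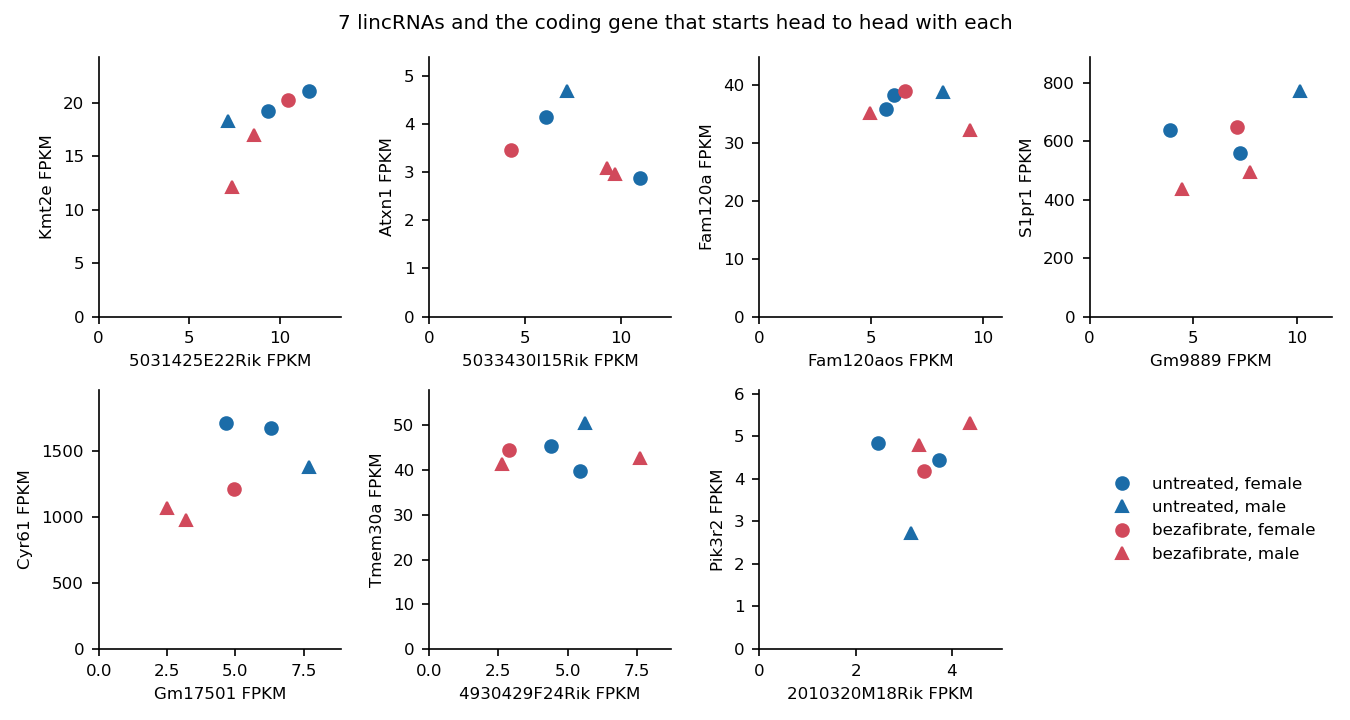
FPKM of each of 7 lincRNAs (x axis) and of the coding gene that starts head to head with it (y axis) in the 6 libraries, blue for untreated and red for bezafibrate, circles female and triangles male. In the panel of Gm17501 and Cyr61 the 3 bezafibrate libraries lie below the untreated ones on the Cyr61 axis.

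Lists of noncoding RNAs by role gave no call. Of 18 snoRNA hosts, 16 were in the table, 11 were tested and 3 are members, and limma called 0, with 8 positive and 3 negative differences (median 0.08). The others of this list that were abundant are typed otherwise in the table: Gas5, a growth-arrest RNA, had 17.05 to 23.9 FPKM, Snhg5 14.5 to 21.5, Snhg8 13.9 to 22.1 and Snhg1 11.2 to 15.3. Of 13 miRNA hosts 2 were tested and 0 called, neither a member: Mir22hg had 5.62 to 16.7 FPKM and Mir17hg 0.936 to 1.97. Of 9 imprinted loci only Peg13 was tested, at 47.2 FPKM in the untreated and 39.7 in the treated libraries (means, log2 difference -0.24, limma adjusted p = 0.999), while Meg3 and H19 stayed under 1 FPKM. The list of regulatory lncRNAs had 19 names, with Norad and Cyrano each also under another name, and 17 were in the table. Of these 4 were tested and 0 called. Norad and Cyrano are members, beside Tug1 at 8.59 to 10.2 FPKM and Fendrr, a lncRNA of the developing heart and vessels, at 5.93 to 10.1. The rRNA-related list had 1 member, Gm26917, at 2.99 to 6.02 FPKM, while Gm42418 and AY036118 were listed at 0.

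Sex was compared as male minus female with treatment as a covariate, which asked whether pooling the sexes mattered for these RNAs. None of 41 passed (limma, smallest adjusted p = 1.00, background 0.0266%), and 4 of 41 had an unadjusted p under 0.05, against 2.94% of all genes. Snhg6 had the smallest p, with 2.87, 2.67 and 4.22 FPKM in males and 4.77, 5.88 and 9.31 in females (log2 difference -0.97, SE 0.23, limma unadjusted p = 0.00421). No male library reached any female one. Such a lack of overlap between the sexes was found in 3 members higher in males and 2 higher in females. Over all 11277 genes tested it was found in 451 and 444. Gm32688 and 5031425E22Rik had log2 differences of -0.91 and -0.42, and Gm38910 one of 0.48. The sexes did not overlap in 5031425E22Rik and Gm38910. They overlapped in Gm32688, where males held both the highest library (bezafibrate M_1) and the lowest (untreated M_1). Gm26917 and 2610035D17Rik, next by p among those with a positive difference, had 0.38 and 0.27.

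Some lincRNAs followed the libraries that the leading component set apart. Untreated M_1 and bezafibrate F_1 were both above the other 4 libraries in 5 of 41 (12.2%, against 17.1% of all genes), namely Bvht, Epb41l4aos, AC130815.2, 4833403J16Rik and Gm26887. They were both below the other 4 in 1700020I14Rik, Gm16046, Neat1 and Dubr (9.76%, against 14.8% of all genes), and these shares were not tested against each other. AC130815.2 (ENSMUSG00000116946, chr16:31233590-31248313, plus strand) had 6.97, 6.27 and 14.2 FPKM in the untreated and 11.1, 3.83 and 2.90 in the treated libraries. It was the member past the threshold for the interaction of treatment and sex (log2 value -2.48, SE 0.31, limma adjusted p = 0.0468), where the background was 0.665% of genes. In this design untreated M_1 is the only untreated male and bezafibrate F_1 the only treated female, so the interaction and these libraries cannot be told apart.

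At the edge of the rule, the members with the lowest minimum were Gm20300, AU020206 and Gm13861, at 2.01, 2.04 and 2.07 FPKM in their lowest library. Just outside were Gm28286, Gm45083 and Gm35167, with minimums of 1.99, 1.97 and 1.96. Gm28286 averaged 5.48 FPKM, above Neat1, and missed the rule through bezafibrate F_1 alone. Of the members not described above, Gm35572 had 8.11 to 10.98 FPKM and Gm13056 3.58 to 8.30. Dubr, a noncoding RNA known from muscle differentiation, had 2.74 to 4.75. Gm16046 spanned 5.27 to 13.1 FPKM, 2610035D17Rik 4.19 to 6.65, Gm38910 2.54 to 4.40 and Gm26809 2.39 to 4.17. Members lay on 17 of the 19 autosomes, with 7 on chromosome 6, the largest number on any of them, and 12 had a single exon.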

How the data were processed

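Sorted brain endothelial cells gave 6 RNA-seq libraries. Per the labels' protocols, the authors made cDNA with SMART-Seq HT, sequenced single-end reads of 75 bases, removed duplicates and mapped to the mouse transcriptome with Salmon. The submitters' processing notes name GRCm38. Versions, annotation, strand setting and library scaling: not given in the sources used here. FPKM values were deposited by the authors. FPKM times length fell on whole multiples of 1 step per library for 100% of values (tolerance 0.01 reads), which gave the reads. The step did not follow the total of recovered reads alone. Untreated F_1 and bezafibrate F_1 held 19110040 and 19070085 reads. Malat1 had 10830 and 11139 of them, at 77.1 and 88.6 FPKM. The library called untreated M_1, after its sample's title, has a column numbered M_2 and was mapped by the sample's description.

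Values were analysed as log2(FPKM + 1), which understates changes of low genes. Genes that reached an FPKM of 1 in 3 or more libraries (11277) were fitted with limma 3.58.1 in R 4.3.3 (eBayes with trend), two-sided, with Benjamini-Hochberg adjustment. All 41 members passed this filter, since the rule is stricter. Libraries are pools of different animals, and p-values reflect how these pools vary. The fit was tested on simulated data. Named members are the 10 highest, the 5 of smallest p in each direction, the 5 most variable, those in a role list or with a small RNA, those at the edge of the rule, and 3 per direction of sex. Members, role lists and marker lists were chosen with earlier results of these data known. Positions are those of the table; 40 of 41 spans equal those of GENCODE M21, whose transcripts were searched for elements. Alternatives were pseudocount 0.1, other filters and scalings, limma-voom on the reads, sex as a covariate, a replicate block, leaving libraries out, and other level thresholds.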

Additional observations from a re-analysis of the deposited data

Results flagged for a closer look

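AC130815.2 differed between the sexes in its difference with bezafibrate by a test of the interaction over all genes. The interaction was -2.48 on the log2(FPKM + 1) scale (SE 0.31, limma adjusted p = 0.0468), with higher levels under bezafibrate in females and lower ones in males. That fit leaves 2 residual degrees of freedom and called 75 of 11277 genes, and 21.3% of all genes and 10 of 41 lincRNAs had an unadjusted interaction p under 0.05. Untreated M_1 and bezafibrate F_1, which stood apart on the first principal component, each make up a cell of that design alone, so sex, treatment and library cannot be told apart here. Groups of 3 libraries were not searched for single outlying values.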

How the results depend on the processing

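No lincRNA passed the threshold in any of the 16 alternative fits of treatment (smallest limma adjusted p = 0.281), nor for sex in the alternatives run. Over all genes the count of calls, 1 in the reported fit, became 0 with FPKM of at least 1 in all 6 libraries, 0 with limma-voom on the reads and 0 without the pair that stood apart (untreated M_1 with bezafibrate F_1), and ranged from 0 to 3 when each library was left out (3 without bezafibrate F_1, 0 without bezafibrate M_1 or M_2). The median difference of the lincRNAs was positive in 15 of 16, up to 0.15 with rescaling to TPM, which raised the median of all genes to 0.10. Of 480 recomputed differences of the 30 named members, 426 kept their sign. Of those printed, AW112010 turned to 0.0002 with limma-voom and 0.0096 with TPM. With each library left out, Malat1 ranged from -0.42 to 0.033 (without bezafibrate M_2) and Bvht from -0.020 (without bezafibrate F_1) to 0.20; the cause was not tested. Groups share the names F_1 and M_1 but not animals. Deviations of same-named libraries correlated at -0.363 and -0.299, so the names were not taken to pair them. With the replicate block 0 genes were called and Malat1 turned to 0.21. The column of untreated M_1 is numbered M_2, a name it shares with bezafibrate M_2 (correlation -0.156). A replicate block by column names, chosen after seeing the data, called 0 genes, left Malat1 at -0.24 and turned the median of the lincRNAs to -0.026. The number of lincRNAs was 67 at a level of at least 1, 13 at 5 and 99 when 2 was applied to TPM. Depth limits the low members: Gm13861 rested on 19 to 48 reads.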
